A study of Mus musculus with 4 samples.

Results

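The nuclear genes for the core enzymes of the mitochondrial TCA cycle were followed in mouse E14 embryonic stem cells, a line that was established from cells of a 129 strain blastocyst, after short hairpin RNA against the repeat-derived RNA Lx8-SINE B2. The set held 9 genes, Cs, Idh3a, Idh3b, Idh3g, Ogdh, Sucla2, Suclg1, Fh1 and Mdh2, which were taken by symbol from the 35976 gene rows of the deposited count table. All 9 were found, and all 9 were among the 16209 genes that passed the filter on low counts. The rule that takes them uses no measured value.

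The knockdown group held 2 libraries of cells that the labels call knocked down, and the control group held 2 libraries of cells labelled wild type. The labelled strain was 12910la in both groups, and a single account of transfection with pSuper puro, a plasmid that expresses a hairpin RNA, and of puromycin selection covers all 4 libraries. The vector that the control cells received, the hairpin sequence and the number of hairpins are not given, and the labels do not say how the 2 libraries within a group relate, so p-values here measure a spread that may be purely technical. Only the knockdown titles name a batch, so any batch and the knockdown itself cannot be told apart. Cells grew on gelatin in serum with the cytokine LIF, and no value for the hairpin target is analysed here.

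The TCA cycle of the mitochondrial matrix oxidises acetyl-CoA, made from pyruvate, fatty acids or amino acids, and passes the electrons to the respiratory chain. Its intermediates also feed synthesis of lipids and amino acids. In mouse embryonic stem cells the cycle is also known for alpha-ketoglutarate, a cosubstrate of the dioxygenases that demethylate DNA and histones, which succinate and fumarate inhibit.

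Library totals ran from 16383323 to 18592224 counts in the knockdown group and from 19044832 to 19867689 in the control group. A member had between 703 and 6956 counts in a library. Markers of embryonic stem cells, among them Pou5f1, Sox2, Nanog, Esrrb and Zfp42, were abundant in every library, with summed levels of 4481 and 4766 CPM (counts scaled to library size) in the knockdown libraries and 5897 and 5641 CPM in the controls. Of the 7 genes of this list 1 was called, Tdgf1, a NODAL coreceptor gene, which fell (log2 fold change -1.19, edgeR adjusted p = 0.0438). In edgeR's quasi-likelihood test 0.555% of all tested genes fell at an adjusted p of 0.05. Of 8 fibroblast markers, Col3a1, Dcn, Lum and Postn were at or near 0, Thy1 and Pdgfrb led, and the summed level of the list was 11.0 and 11.8 CPM in the knockdown libraries against 25.0 and 33.1 CPM in the controls. Of 5 endoderm markers, Gata4, Gata6 and Sox17 passed the filter and lay higher in the knockdown libraries, where the list summed to 26.1 and 17.6 CPM against 8.08 and 8.82 CPM in the controls. Of the fibroblast markers 4 were tested. None of these fibroblast and endoderm markers passed edgeR's quasi-likelihood test after adjustment, though 2 and 3 had an unadjusted p below 0.05 and DESeq2 called 2 and 1. Over all tested genes 19.6% had such an unadjusted p, and DESeq2 called 7.56% of the genes it gave an adjusted p. The part of these markers in the results below was not tested.

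In the knockdown cells 0 of the 9 TCA cycle genes rose and 0 fell at a Benjamini-Hochberg adjusted p of 0.05, taken over all genes in edgeR's quasi-likelihood test. Of all tested genes 0.876% rose and 0.555% fell, 1.43% in all. The 3 members furthest from the controls were Idh3a, Fh1 and Idh3g, which stood at 0.614, 0.639 and 0.691 times their control level. Idh3a and Idh3g are subunits of the NAD-linked isocitrate dehydrogenase, and Fh1 encodes fumarase. Cs and Ogdh stood at 1.04 and 1.11 times the control level and Mdh2 and Idh3b at 0.922 and 0.916 times, while the succinyl-CoA synthetase genes Sucla2 and Suclg1 stood at 0.770 and 0.856 times, with wide intervals.

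At an unadjusted p below 0.05, 3 of the 9 members were counted, where 19.6% of all tested genes were. At an adjusted p of 0.05 DESeq2 called 2 members, where it called 7.56% of the genes it gave an adjusted p. The likelihood ratio test of edgeR called 1 member and 8.08% of all tested genes, and limma-voom called 0 members and 1.49% of all tested genes. Both knockdown libraries lay below both controls in 4 members, a pattern found in 24.6% of all tested genes, and above both controls in 0 members, where 27.3% of all tested genes had that pattern. In either direction the groups did not overlap in 51.9% of all tested genes. The median log2 fold change, which is knockdown over control throughout, was -0.22 over the 9 members, while it was 0.01 over all tested genes, and 7 of the 9 values were negative. That median was -0.11 without control replicate 1 and -0.34 without control replicate 2. The 9 genes together took 0.129% and 0.136% of the counts of the knockdown libraries, and 0.146% and 0.140% of those of the controls. Lower RNA per cell and fewer cells that express a gene cannot be told apart in such bulk samples.

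**Figure D1:**
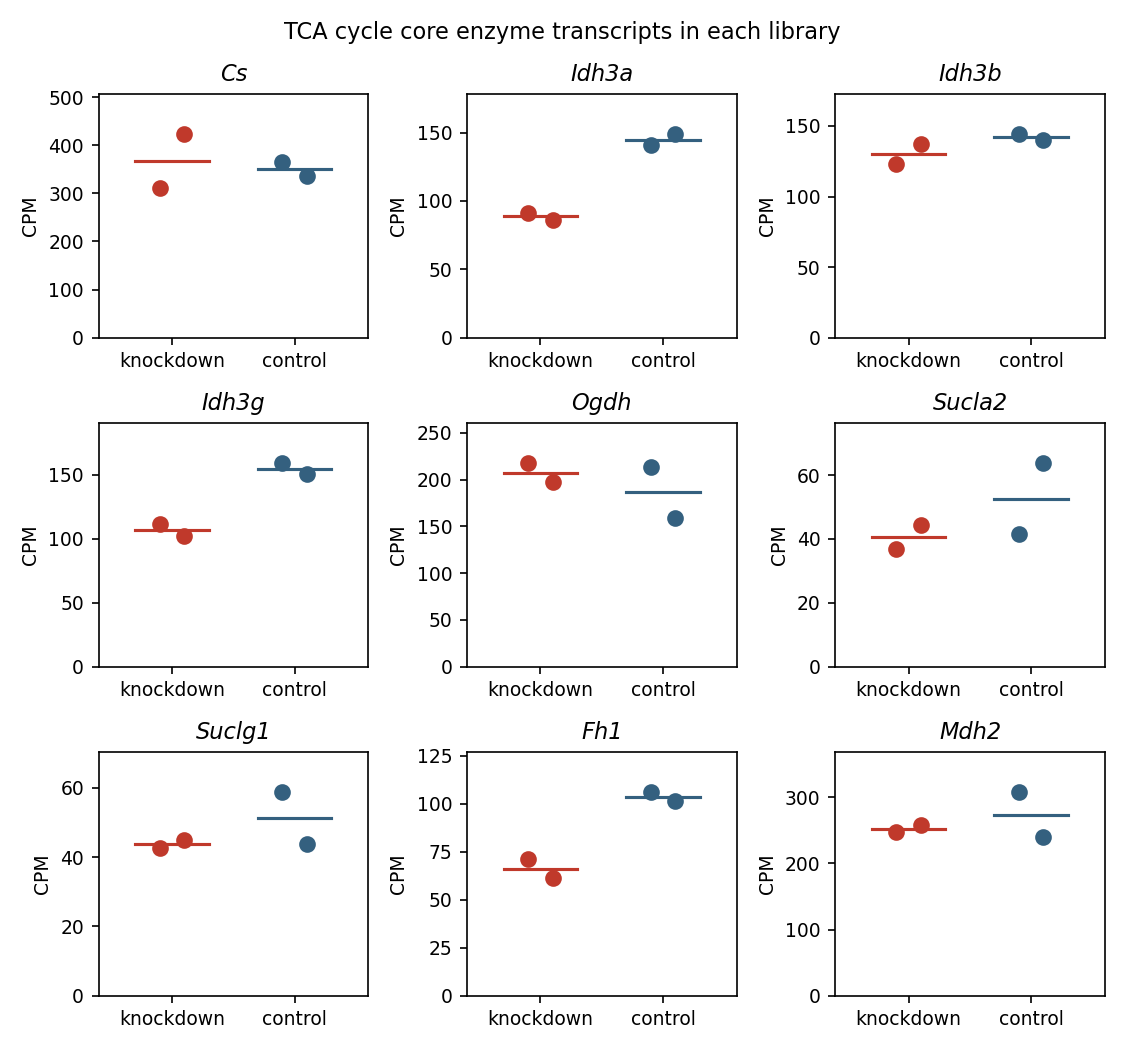
CPM (TMM-scaled, linear axis from 0) of each of the 9 genes in the 2 knockdown libraries (red) and the 2 control libraries (blue), with a line at the mean of each group. The groups stand apart, with the knockdown libraries lower, in Idh3a, Idh3b, Idh3g and Fh1, and they overlap in the other 5 genes.

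Cs encodes citrate synthase, which joins acetyl-CoA to oxaloacetate and opens the cycle, and lies on chromosome 10 from 128337727 to 128362482 (GRCm38). It had 310 and 423 CPM in the knockdown libraries, against 366 and 336 CPM in the controls. The knockdown libraries lay on either side of the controls, which themselves were close to each other. Cs averaged 367 ± 79.7 CPM in knockdown cells and 351 ± 21.2 CPM in control cells (SD, n = 2 each). Its log2 fold change was 0.06 with a 95% interval from -0.40 to 0.53 (edgeR adjusted p = 0.897). The sign hung on single libraries, with -0.18 without knockdown replicate 2 and 0.26 without knockdown replicate 1. Csl, a citrate synthase-like gene whose transcript is 91.9% identical to that of Cs over 1522 bases, had 0 counts in every library, and 469 bases of the processed pseudogene Gm48254 were also similar. For the other 8 members no transcript of another gene was as similar.

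The NAD-linked isocitrate dehydrogenase, IDH3, makes alpha-ketoglutarate and is built from a catalytic alpha subunit with beta and gamma subunits that regulate it, so 3 genes serve this single step. Idh3a, the gene of the alpha subunit, lies on chromosome 9 from 54586511 to 54604662. It had 91.5 and 86.4 CPM in the knockdown libraries, against 141 and 149 CPM in the controls. The groups did not overlap, and the libraries of each group lay close together. Idh3a averaged 89.0 ± 3.61 CPM in knockdown cells and 145 ± 5.64 CPM in control cells (SD, n = 2 each), so the log2 fold change was -0.70 (standard error 0.17, 95% interval from -1.09 to -0.32). This did not pass the threshold over all genes (edgeR adjusted p = 0.0792). The call was made with DESeq2 (adjusted p = 0.0119), with the edgeR likelihood ratio test (adjusted p = 0.0204) and in edgeR's quasi-likelihood test with no filter on low counts (adjusted p = 0.0191). Over all alternatives the adjusted p ran from that DESeq2 value to 0.478, which came without knockdown replicate 2.

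Idh3g, the gene of the gamma subunit on the X chromosome from 73778963 to 73786897, had 111 and 102 CPM in the knockdown libraries, against 159 and 150 CPM in the controls. These groups also stood apart with little spread inside them. The averages were 107 ± 6.30 CPM in knockdown cells and 155 ± 6.08 CPM in control cells (SD, n = 2 each), and the log2 fold change was -0.53 with a 95% interval from -0.92 to -0.15 (edgeR adjusted p = 0.138). Idh3g passed the threshold under none of the 15 alternatives.

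Idh3b, the gene of the beta subunit on chromosome 2 from 130279309 to 130284451, had 123 and 137 CPM in the knockdown libraries, against 144 and 140 CPM in the controls. The knockdown libraries were again the lower ones, but the nearer one came close to the controls. The log2 fold change was -0.13 with a 95% interval from -0.51 to 0.26 (edgeR adjusted p = 0.725). Exons of Idh3b share 5 bases with Nop56 on the other strand, and the strand setting of the counting is not given.

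Ratios of counts within a library do not depend on how libraries are scaled, and they set the IDH3 subunits against each other directly. The count ratio of Idh3b to Idh3a was 1.35 and 1.59 in the knockdown libraries, against 1.02 and 0.942 in the controls. The ratio of Idh3b to Idh3g was 1.11 and 1.34 in the knockdown libraries, against 0.908 and 0.933 in the controls. The beta subunit transcript was thus more abundant relative to alpha and to gamma in each knockdown library than in each control. The ratio of Idh3g to Idh3a, at 1.22 and 1.18 in the knockdown libraries and 1.13 and 1.01 in the controls, differed less. The mean log2 ratio differed by 0.57 for beta to alpha, 0.41 for beta to gamma and 0.17 for gamma to alpha, knockdown minus control. In an exact two-sided permutation test over the libraries the p was 0.333 for each of these ratios, which is the smallest this test can give with 2 against 2 libraries, and 0.524 after Benjamini-Hochberg adjustment over 11 ratios. So this test cannot reach a threshold of 0.05 here, and the ratios were put to no other test.

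**Figure D2:**
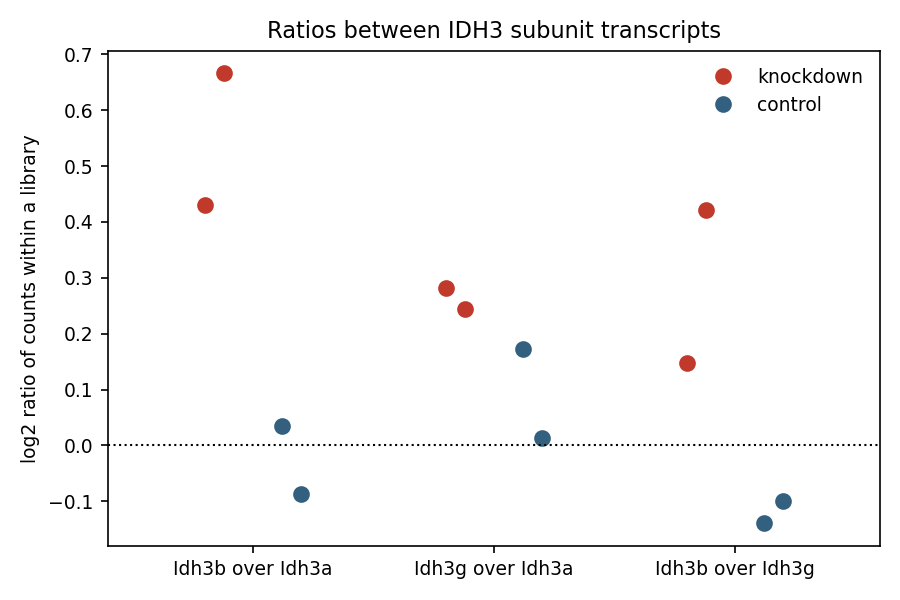
Log2 ratio of raw counts between IDH3 subunit genes within each library, for 2 knockdown libraries (red) and 2 control libraries (blue). In all 3 ratios the knockdown points lie above the control points, with the widest gap for Idh3b over Idh3a, where the mean difference is 0.57.

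The start regions of these genes are shown because Idh3g and Fh1 lay low together while Idh3b, of the same enzyme as Idh3g, lay near the control level. Promoter windows from RefSeq (GRCm38.p6) were used for 8 of the 9 members, as the set of windows used here held none for Idh3a. The 250 bases before the annotated start, written 5′ to 3′ along the gene, are at chrX:73786898-73787147 on the minus strand for Idh3g, at chr1:175625636-175625885 on the minus strand for Fh1 and at chr2:130284452-130284701 on the minus strand for Idh3b. Capitals mark ACGTG, a form of the core of the hypoxia response element bound by HIF. GCGTG, the other form of this core, was not searched for, and the Idh3g and Fh1 windows hold it unmarked.
Idh3g: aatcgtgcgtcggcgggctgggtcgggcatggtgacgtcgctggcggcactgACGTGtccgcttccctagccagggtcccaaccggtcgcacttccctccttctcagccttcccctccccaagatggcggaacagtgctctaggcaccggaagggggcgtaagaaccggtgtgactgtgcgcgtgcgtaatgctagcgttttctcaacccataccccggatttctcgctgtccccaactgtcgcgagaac
Fh1: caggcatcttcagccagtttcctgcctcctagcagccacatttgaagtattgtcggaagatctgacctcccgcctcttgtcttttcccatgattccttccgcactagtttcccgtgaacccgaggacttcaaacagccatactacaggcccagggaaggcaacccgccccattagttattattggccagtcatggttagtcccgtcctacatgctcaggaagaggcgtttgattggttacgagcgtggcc
Idh3b: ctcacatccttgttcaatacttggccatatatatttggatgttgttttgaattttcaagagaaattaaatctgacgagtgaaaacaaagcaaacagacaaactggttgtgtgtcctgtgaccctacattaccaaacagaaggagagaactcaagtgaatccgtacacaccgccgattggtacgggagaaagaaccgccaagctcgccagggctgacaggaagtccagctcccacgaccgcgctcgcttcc
These windows were searched on both strands for ACGTG, for TGACGTCA bound by CREB, for CCGGAAGT bound by GABPA and for TCAAGGTCA bound by ERR alpha. The first and the second can overlap, as they do before Ogdh. The Idh3g window held a single ACGTG that begins 198 bases before the start, and ACGTG occurs in 16.6% of the 32851 such windows of all genes. The Fh1 and Idh3b windows held none of the 4 letter strings. Of the other members, Mdh2 held TGACGTCA 127 bases before its start and windows of Ogdh held TGACGTCA and ACGTG, while TGACGTCA occurs in 1.55% of all windows. The 8 members had 13 windows, and only Ogdh had several, which gave it more room for a match. Its TGACGTCA is a single site shared by overlapping windows, and its ACGTG matches elsewhere lie in the palindrome CACGTG, read on both strands. A match or its lack describes these letters only.

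Ogdh encodes the decarboxylating E1 subunit of the alpha-ketoglutarate dehydrogenase complex, which makes succinyl-CoA, and lies on chromosome 11 from 6291597 to 6359094. It had 218 and 197 CPM in the knockdown libraries, against 214 and 159 CPM in the controls. The knockdown libraries overlapped the controls, and control replicate 2 was the lowest of the 4. The log2 fold change was 0.15 with a 95% interval from -0.30 to 0.61 (edgeR adjusted p = 0.717), and it was -0.09 without control replicate 2 and 0.38 without control replicate 1. The count ratio of Ogdh to Dlst, the gene of the E2 subunit, was 1.36 and 1.45 in the knockdown libraries and 1.26 and 1.05 in the controls.

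Succinyl-CoA synthetase makes succinate and ATP or GTP. Suclg1 encodes its shared alpha subunit on chromosome 6 from 73248505 to 73276907, and Sucla2 encodes the ATP-forming beta subunit on chromosome 14 from 73552786 to 73596144. Sucla2 had 36.8 and 44.3 CPM in the knockdown libraries, against 41.6 and 63.7 CPM in the controls. Control replicate 2 was by far the highest, and the other control lay between the knockdown libraries. The log2 fold change of Sucla2 was -0.38 with a 95% interval from -0.95 to 0.20 (edgeR adjusted p = 0.448), and it was -0.65 without control replicate 1 and -0.09 without control replicate 2.

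Suclg1 had 42.6 and 45.0 CPM in the knockdown libraries, against 58.7 and 43.6 CPM in the controls. Here control replicate 1 was the high library, the reverse of Sucla2, and control replicate 2 lay between the knockdown libraries. The log2 fold change of Suclg1 was -0.22 with a 95% interval from -0.72 to 0.27 (edgeR adjusted p = 0.610). Without control replicate 1 it was 0.00. The count ratio of Sucla2 to Suclg1 was 0.864 and 0.985 in the knockdown libraries and spread from 0.709 to 1.46 in the controls, so the groups overlapped.

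Fh1 encodes fumarase, which hydrates fumarate to malate, and lies on chromosome 1 from 175601378 to 175625635. It had 71.3 and 61.1 CPM in the knockdown libraries, against 106 and 101 CPM in the controls. The groups did not overlap, and the gap between them was wider than the spread inside either. Fh1 averaged 66.2 ± 7.18 CPM in knockdown cells and 104 ± 3.42 CPM in control cells (SD, n = 2 each), so the log2 fold change was -0.65 (standard error 0.18, 95% interval from -1.05 to -0.24). It missed the threshold over all genes (edgeR adjusted p = 0.106). It passed narrowly with DESeq2 (adjusted p = 0.0413) and in edgeR's quasi-likelihood test without the filter on low counts (adjusted p = 0.0486), and the adjusted p reached 0.609 without knockdown replicate 2.

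Mdh2 encodes mitochondrial malate dehydrogenase, which restores oxaloacetate and closes the cycle, and lies on chromosome 5 from 135778649 to 135790386. It had 247 and 258 CPM in the knockdown libraries, against 308 and 240 CPM in the controls. The knockdown libraries agreed closely and lay between the controls. The log2 fold change was -0.12 with a 95% interval from -0.55 to 0.31 (edgeR adjusted p = 0.777), and it was 0.07 without control replicate 1 and -0.34 without control replicate 2. The count ratio of Fh1 to Mdh2, the enzymes of consecutive steps, was 0.289 and 0.237 in the knockdown libraries, against 0.345 and 0.421 in the controls. The ratio of Cs to Fh1 was 4.35 and 6.92 in the knockdown libraries and 3.46 and 3.32 in the controls. Of the 11 ratios computed, 7 did not overlap between the groups, each at the exact permutation p of 0.333 and 0.524 after adjustment. Taken singly, 51.9% of all tested genes did not overlap, and no such share was computed for ratios of other genes. The 11 ratios share genes, so they are not separate observations.

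**Figure D3:**
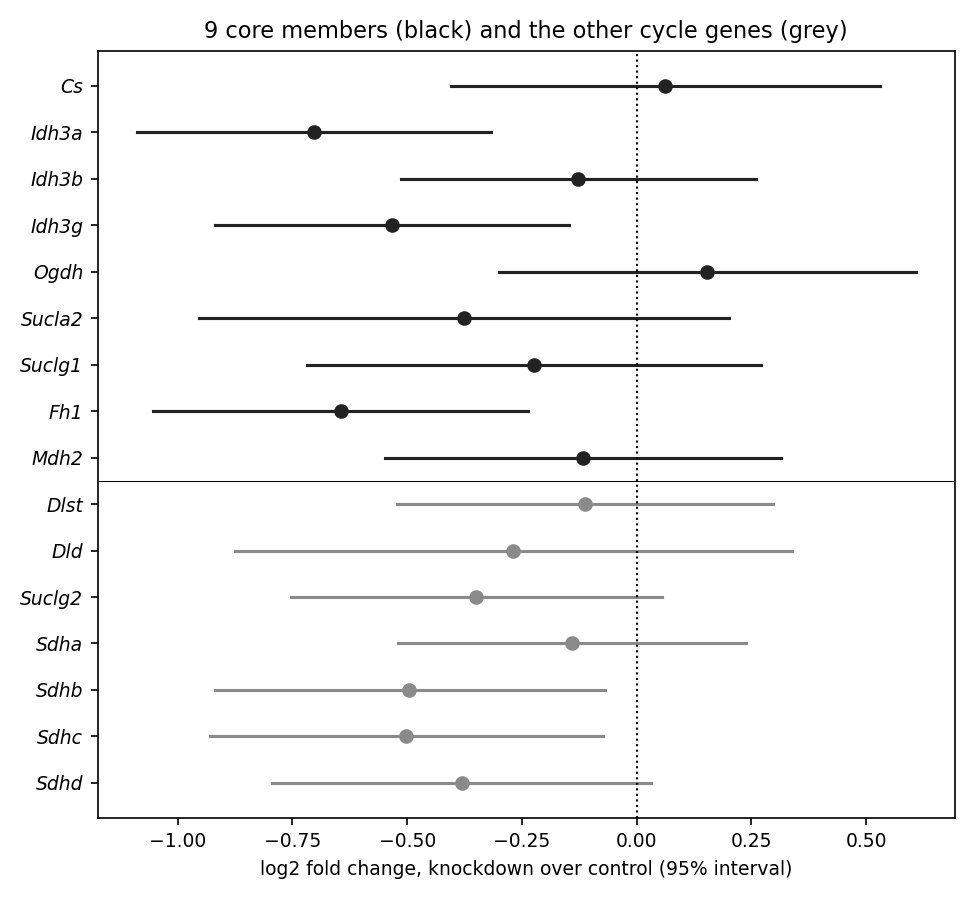
Log2 fold change of knockdown over control with its 95% interval from edgeR's quasi-likelihood fit (2 libraries a group), for the 9 members (black) and 7 other genes of the cycle (grey). Idh3a at -0.70, Fh1 at -0.65 and Idh3g at -0.53 lie furthest left, and no gene shown passed an adjusted p of 0.05.

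The members differed in how well their replicates matched. In Idh3a, Idh3b, Idh3g and Fh1 the controls differed by 0.04 to 0.08 on the log2 scale, while in Sucla2, Suclg1, Ogdh and Mdh2 they differed by 0.61, 0.42, 0.42 and 0.36. Over all tested genes the median difference between the controls was 0.31. In Cs the controls differed by 0.12 and the knockdown libraries by 0.45, the widest knockdown spread of the 9. The higher of the 2 controls was replicate 1 in Suclg1, Ogdh and Mdh2 and replicate 2 in Sucla2. In Ogdh control replicate 1 lay between the knockdown libraries, and control replicate 2 stood low. The share of counts from the 13 mRNAs of the mitochondrial genome was 0.597% and 0.723% in the knockdown libraries and 0.657% and 1.13% in the controls, and its part in these differences was not tested.

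**Figure D4:**
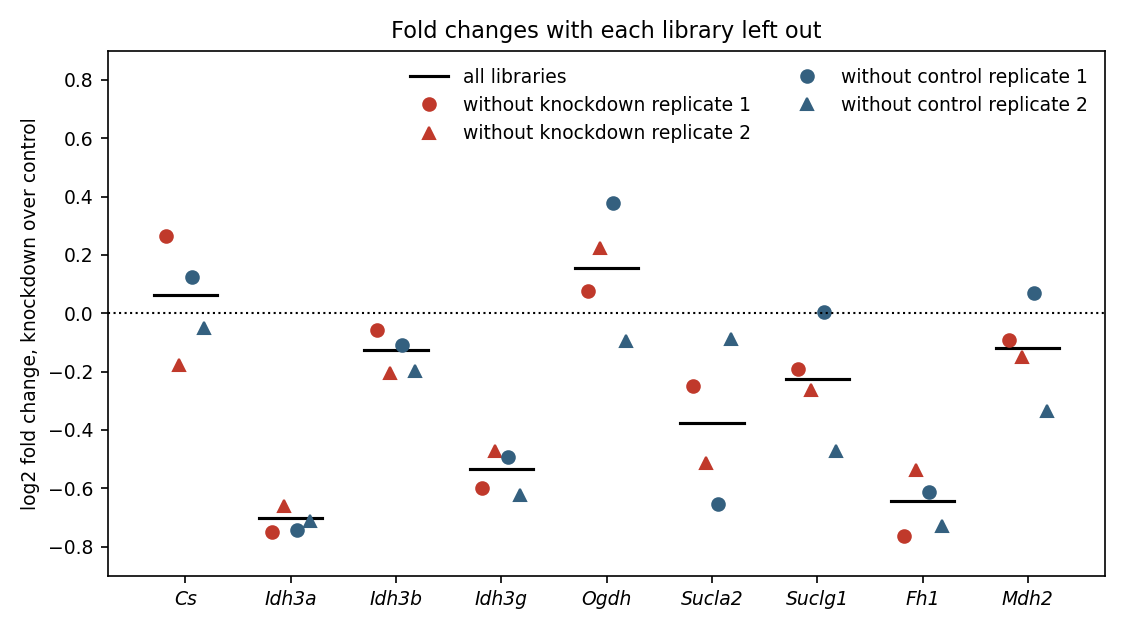
Log2 fold change of knockdown over control of the 9 genes with all libraries (black line) and with each library left out in turn (points). Idh3a stays between -0.75 and -0.66, Idh3g between -0.62 and -0.47 and Fh1 between -0.77 and -0.54, while Cs, Ogdh, Suclg1 and Mdh2 have values on both sides of 0.

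Per kilobase of annotated exon (GENCODE M21), which allows levels of different genes to be compared, Mdh2 and Cs were the most abundant members, with means of 73.8 and 62.1 CPM per kilobase over the 4 libraries. Idh3g followed at 48.4, Idh3b at 39.8, Ogdh at 36.1, Fh1 at 25.0 and Idh3a at 23.0 CPM per kilobase. Sucla2 and Suclg1 were the least abundant, at 11.7 and 10.3 CPM per kilobase. Neighbours in this order overlapped in their library values except Idh3a, whose lowest library at 17.0 lay above the highest of Sucla2 at 16.0 CPM per kilobase. Among the IDH3 genes the catalytic alpha subunit was the lowest per length, at 17.5 CPM per kilobase in knockdown cells and 28.6 in control cells, against 38.0 and 41.5 for the beta subunit and 39.5 and 57.2 for the gamma subunit. These levels rest on the summed exons of all annotated isoforms and would shift with the isoform used.

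Described beside the members were 7 further genes of the cycle, Dlst and Dld for the E2 and E3 subunits of the alpha-ketoglutarate dehydrogenase complex, Suclg2 for the GTP-forming beta subunit of succinyl-CoA synthetase and Sdha, Sdhb, Sdhc and Sdhd for succinate dehydrogenase. Of these 7 genes 0 rose and 0 fell at the adjusted threshold in edgeR's quasi-likelihood test, DESeq2, limma-voom or the likelihood ratio test. An unadjusted p below 0.05 was found in 2 of them and in 19.6% of all tested genes. All 7 log2 fold changes were negative, from -0.50 to -0.11 with a median of -0.35, where 49.5% of all tested genes had a negative value, and 5 of the 7 had both knockdown libraries below both controls, as 24.6% of all tested genes did. Sdha, the flavoprotein subunit and the most abundant of the 7 in counts, had 236 and 245 CPM in the knockdown libraries, against 269 and 260 CPM in the controls, which is -0.14 as log2 fold change (edgeR adjusted p = 0.687). Dlst had 160 and 136 CPM in the knockdown libraries, against 169 and 151 CPM in the controls (edgeR adjusted p = 0.774). The sign of Dlst changed without knockdown replicate 2, at 0.00, and that of Dld without control replicate 2, at 0.12.

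The profile of the members over the libraries, taken as the median of their centred log2 CPM, was -0.20 and -0.04 in the knockdown libraries and 0.23 and 0.04 in the controls. Of the other listed genes, the nearest to it by root mean square distance over the 4 libraries were Suclg2 at 0.05, Pou5f1 at 0.06 and Dlat at 0.06 on the log2 scale. With 4 libraries this is a description of likeness only.

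Enzymes outside the mitochondrial cycle that handle the same metabolites were also not called. The list of cytosolic and NADP-linked isoforms had 0 of 9 tested members called in either direction by edgeR or DESeq2, and a median log2 fold change of -0.39. An unadjusted p below 0.05 was found in 2 of the 9 and in 19.6% of all tested genes. Acly, the cytosolic ATP citrate lyase that splits exported citrate, had 475 and 612 CPM in the knockdown libraries, against 668 and 538 CPM in the controls, which is -0.15 as log2 fold change (edgeR adjusted p = 0.738). Mdh1, the cytosolic malate dehydrogenase, had 124 and 131 CPM in the knockdown libraries, against 164 and 172 CPM in the controls, which is -0.40 as log2 fold change (edgeR adjusted p = 0.236). It belongs to the same family as Mdh2, and the count ratio of Mdh2 to Mdh1 was 1.99 and 1.97 in the knockdown libraries and 1.88 and 1.40 in the controls. Transcripts of 15 glycolytic enzymes, by contrast in size, summed to 7.62 and 8.0 times the CPM of the 9 TCA cycle members in the knockdown libraries, and to 15.4 and 13.3 times in the controls. Of these 15 genes 6 fell and 0 rose in edgeR's quasi-likelihood test, where 0.555% of all tested genes fell, with a median log2 fold change of -1.10. The calls numbered 12 with DESeq2, 12 with the likelihood ratio test and 7 with limma-voom, where these called 7.56%, 8.08% and 1.49% of their genes in both directions. All 15 had an unadjusted p below 0.05 and both knockdown libraries below both controls, as 19.6% and 24.6% of all tested genes did. The calls with the smallest p were Pgk1 at -2.05, Aldoc at -3.23, Pfkp at -1.56 and Ldha at -1.70 as log2 fold change. The difference between the lists was not tested.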

How the data were processed

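The 4 libraries were made from mRNA of E14 cells with a VAHTS mRNA-seq V2 kit, per the labels' protocols. The values that the authors deposited are whole read counts for each gene, not normalized. Per the submitters' processing notes, cutadapt, HISAT2 and featureCounts were used with build mm10. Tool versions, annotation, strand and multi-mapping settings, not given in the sources used here, could shift counts of genes with close copies or overlapping neighbours. Exons of 33 of the 98 listed genes, members included, were found to overlap another gene in GENCODE M21. Among those with values given here, Sdhaf1 shared 1733 bases, Pfkp 748, Pdha1 603, Got2 434 and Gabpa 397 with genes on the other strand.

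From 36068 rows, 92 spike-in rows with 0 counts were left out. In 27 rows a spreadsheet had turned the symbol into a date, and these stayed in the library sizes. Genes were filtered with filterByExpr of edgeR 4.0.16 (R 4.3.3), which removed 19767 and left 16209. Libraries were scaled by TMM, and CPM are scaled this way. Knockdown was tested against control in edgeR's quasi-likelihood fit, whose model held the group alone, with Benjamini-Hochberg adjustment over every tested gene. The standard error is the log2 fold change divided by the root of the F statistic, and 95% intervals use the test's degrees of freedom and are not adjusted for multiple tests. Log2 ratios within a library used counts with a pseudocount of 0.5. DESeq2 1.42.0, limma-voom (limma 3.58.1), other scalings and filters, the replicate number as a block, leaving out each library and thinning were alternatives. The fit was tested on simulated counts. Members, gene lists and the naming rule were chosen with earlier results of these data known. The rule named all members, up to 4 called genes of every other list or, with none called, its 2 most abundant genes, and the 3 listed genes nearest to the members' profile. Some genes of these lists are not reported here. Positions and promoter windows came from RefSeq GRCm38.p6, the same build as mm10, and similar transcripts were sought in GENCODE M21 with at least 90% identity over 200 bases.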

Additional observations from a re-analysis of the deposited data

How the results depend on the processing

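No member changed direction under the 3 other scalings, the 2 other filters, DESeq2, limma-voom, the likelihood ratio test, the replicate block, the fit without the most abundant and mitochondrial genes or the thinned counts. The members called numbered 0 in the first analysis and 2 with no filter, 2 with DESeq2 and 1 with the likelihood ratio test, and 0 under the other 12 alternatives, while the other TCA cycle genes had 0 calls under all 15. Genes called over the whole table numbered 232, and 1717 with no filter, 1107 with DESeq2, 1310 with the likelihood ratio test and 153 to 587 when a library was left out. The members' median log2 fold change was -0.22 and ran from -0.34 to -0.11 when a library was left out. Replicate numbers are shared between the groups, but deviations of replicate 1 from the group means correlated across genes at -0.06, which gives no sign of pairing. With the replicate block 656 genes and 0 members were called. The causes were not tested. With 1 library left out, a group's lone library was taken to vary as much as the other pair. In simulated data of this size the test called 25.0% of genes changed by 1 on the log2 scale and 71.3% of those changed by 2. The changed genes were drawn from all tested genes, whose median standard error was 0.296, against 0.187 for the members. These rates are therefore not those of the members. How often changes of the size seen here would be called was not measured, so they could pass unnoticed.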

Other observations

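In the lists described here edgeR's quasi-likelihood test called 0 genes at an adjusted p of 0.05, and DESeq2 called 1 gene each in the glutamine and carrier lists and 0 in the others. DESeq2 called 7.56% of all genes it gave an adjusted p, and 19.6% of all tested genes had an unadjusted p below 0.05 in edgeR. Entry of pyruvate into the cycle was described by 7 genes, of which 0 had an unadjusted p below 0.05, with a median log2 fold change of 0.08. Pdha1, the E1 alpha subunit of pyruvate dehydrogenase, had 155 and 161 CPM in the knockdown libraries, against 187 and 184 CPM in the controls, and Pdhb, its E1 beta subunit, had 134 and 190 CPM in the knockdown libraries, against 164 and 142 CPM in the controls. Entry of glutamine and aspartate carbon was described by 5 genes, of which 1 had an unadjusted p below 0.05, with a median of -0.26. Glud1, glutamate dehydrogenase, had 491 and 665 CPM in the knockdown libraries and 522 and 406 CPM in the controls, and Got2, the mitochondrial aspartate aminotransferase, had 280 and 253 CPM in the knockdown libraries and 406 and 275 CPM in the controls. Gls2, a glutaminase gene outside the naming rule and chosen after its values were seen, shares 97 exon bases with Spryd4 on the other strand and had 26.8 and 25.4 CPM in the knockdown libraries and 56.3 and 44.4 CPM in the controls, which is -0.95 as log2 fold change (edgeR adjusted p = 0.0698).

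Of 5 tested carriers of cycle intermediates 2 had an unadjusted p below 0.05, with a median log2 fold change of -0.12. Slc25a1, the citrate carrier, had 55.3 and 54.3 CPM in the knockdown libraries, against 110 and 77.6 CPM in the controls (edgeR adjusted p = 0.106), and Slc25a13, an aspartate and glutamate carrier, had 74.6 and 144 CPM in the knockdown libraries, against 144 and 94.7 CPM in the controls. The dicarboxylate carrier gene Slc25a10, outside the naming rule and chosen after its values were seen, shares 228 exon bases with Gm11788 on the other strand. It had 18.5 and 16.8 CPM in the knockdown libraries, against 9.99 and 9.86 CPM in the controls, which is 0.83 as log2 fold change (edgeR adjusted p = 0.144). Of 10 tested regulators of mitochondrial biogenesis 2 had an unadjusted p below 0.05, where 19.6% of all tested genes did. All 10 had negative values, where 49.5% of all tested genes did, and the median was -0.16. The 2 counted were Ppargc1b at -1.39 (edgeR adjusted p = 0.170) and Tfam at -0.53 (edgeR adjusted p = 0.225). Ppargc1b had 2.41 and 5.23 CPM in the knockdown libraries, against 12.7 and 7.21 CPM in the controls. Other values were near 0, such as -0.001 for Tfb2m and -0.014 for Gabpb1. These genes are outside the naming rule and were chosen after their values were seen. The PGC-1-related coactivator gene Pprc1 had 303 and 258 CPM in the knockdown libraries and 354 and 250 CPM in the controls, and Gabpa had 149 and 175 CPM in the knockdown libraries and 177 and 200 CPM in the controls. The 4 SDH assembly factors had 0 genes at an unadjusted p below 0.05, and log2 fold changes from -0.42 to 0.38 with a median of -0.15. The 2 most abundant of them were Sdhaf2 at 0.38 and Sdhaf1 at -0.06. The 4 genes of OGDH-like and 2-hydroxyglutarate enzymes had 1 gene at such a p, and values from -0.61 to 0.04 with a median of -0.39. The 2 most abundant there were Ogdhl at -0.20 and Dhtkd1 at -0.61.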
